A study of Mus musculus with 56 samples.

Results

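Gastrocnemius muscle of mice that had stopped breathing cigarette smoke, in the arm labelled RA, was compared with that of mice kept on sham air for 24 weeks. The comparison used 12 of the 56 expression arrays of the study, 6 from cessation RA mice and 6 from sham-air mice, chosen by their source labels. All mice were female C57BL/6. Smoke was 4% mainstream cigarette smoke, given to the nose only for 2 hours a day on 5 days a week, and sham air was given in the same way. Cessation RA mice breathed smoke for 12 weeks, followed by 12 weeks labelled RA. In cessation FA mice, which were compared with cessation RA mice and with 24-week sham-air mice, the last 12 weeks carried the label FA instead. Sham-air mice of 24 weeks carried the label FA throughout. Per the design text all cessation mice received sham exposure in their last 12 weeks, and neither abbreviation is defined in the sources used here. The other groups used were sham air of 2 and of 12 weeks and untreated mice of week 0, with 6 mice each. Mice kept on smoke for 2 weeks (6 mice), 12 weeks (7 mice on 8 arrays) and 24 weeks (6 mice) were in no tested comparison. They entered the model, the split of arrays by the gene Glycam1, the ranking of group means, the correlations across 55 mice and 1 figure. Groups of different weeks may differ in age as well as in exposure. Each array of these groups is 1 mouse, so p-values measure the spread between mice. The time of day and the date at which muscle was collected are not given in the sources used here.

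Skeletal muscle keeps its own circadian clock. The proteins BMAL1 (gene Arntl) and CLOCK, or its relative NPAS2, pair up and switch on the Per, Cry, Nr1d1, Ciart and Dbp genes through a DNA element called the E-box. PER and CRY proteins then block BMAL1 and CLOCK, and REV-ERB proteins (gene Nr1d1) repress Arntl, so that in mouse tissues Arntl and Npas2 transcripts peak at about the opposite time of day to those of the Per genes. Glucocorticoids, feeding and contraction also act on several of these transcripts in muscle.

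Levels below are on the log2 scale after adding 16 to each deposited intensity. A mean level carries the SD of its mice and a difference its SE. A gene passed when its Benjamini-Hochberg adjusted p from a limma model of 55 mice in 9 groups lay under 0.05, over the 12351 genes tested. Levels of different probe sets are not comparable with each other. Apart from a rough rank of muscle identity genes, only differences between groups are therefore read.

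An intensity of Glycam1, a gene of lymph node vessels, split the arrays into 12 between 6944 and 10546 and 44 between 7.7 and 306.7. Arrays above 2000, called Glycam1-rich here, came from 3 of the 6 cessation RA mice (replicates 1, 4 and 5) and 1 of the 6 sham-air mice (replicate 6). Leaving them out of every group left 3 cessation RA mice and 5 sham-air mice, and results are given both ways. The mean of 12 lymphocyte markers ran from 5.17 to 9.88 in cessation RA mice and from 5.29 to 9.54 in sham-air mice. It ran from 5.17 to 5.50 in cessation RA mice and from 5.29 to 5.64 in sham-air mice without the Glycam1-rich arrays. Among 15 marker lists the lowest adjusted p by exact two-sided permutation of mice was 0.45 with all arrays and 0.45 without the Glycam1-rich ones. The smallest unadjusted p possible was 0.0022 for 6 against 6 mice and 0.036 for 3 against 5. The probe sets of 10 muscle identity genes ranked between the 90.3 and the 99.9 percentile of all genes. This rank is a rough guide only, since levels of different probe sets are not comparable. Acta1, the actin of skeletal muscle fibres, lay between 13.47 and 13.60 in cessation RA mice and between 13.42 and 13.59 in sham-air mice. In bulk RNA, fewer cells of a type and less RNA per cell cannot be told apart.

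In cessation RA muscle 75 genes were higher than in 24-week sham-air muscle, 0.607% of those tested. A further 142 were lower, or 1.15%, which gave 217 in both directions, or 1.76%. At least 2-fold differences were found for 7 of the higher and 15 of the lower genes. The lower side was led by Arrdc2, Per1, Slc25a25 and Per2, and the higher side by Npas2, Dntt, Gpr34 and Arntl. The 28 lists of named processes described below held 520 measured genes. Of these 35 passed, a larger share than the 1.76% of all genes tested. The lists were chosen with earlier results of these data known. The other 182 of the 217 genes lay outside them. The 6 levels of cessation RA mice did not overlap with the 6 of sham-air mice for 118 of the 217 genes, 35 higher and 83 lower. Over all genes 269 did not overlap, or 2.18%, of which 81 were higher and 188 lower. The 217 genes were chosen by the difference between these same mice, so their larger share follows in part from that choice. The mean of cessation RA was the highest of the 9 group means for 86.7% of the higher genes and the lowest for 78.9% of the lower genes. Over all genes the shares were 9.75% and 8.21%, and the higher counts follow in part from how the genes were chosen.

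Without the Glycam1-rich arrays 490 genes passed, or 3.97%, of which 187 were higher (1.51%) and 303 lower (2.45%). Of the 217 genes, 151 passed again, 51 higher and 100 lower, and none changed sign. The median size of the difference over the 217 genes was 0.49 with all arrays and 0.45 without the Glycam1-rich ones, and 12 moved by more than 1.5 times. A fit of these 2 groups alone without the Glycam1-rich arrays, chosen after seeing the data, passed 37 genes. When each of the 12 mice was left out in turn, 82 of the 217 genes passed every time. Among genes described below, Auts2, Cebpb, Cited2, Dbp, Dusp6, Flt1, Fosl2, Gpr34, Id3, Kcna5, Klf6, Mt2, Nr1d1, Nr4a2, Nrip1, Pik3ca, Pla2g7, Slc18a1 and Tpx2 did not, with highest adjusted p between 0.051 (Nr1d1) and 0.19 (Dbp).

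**Figure D1:**
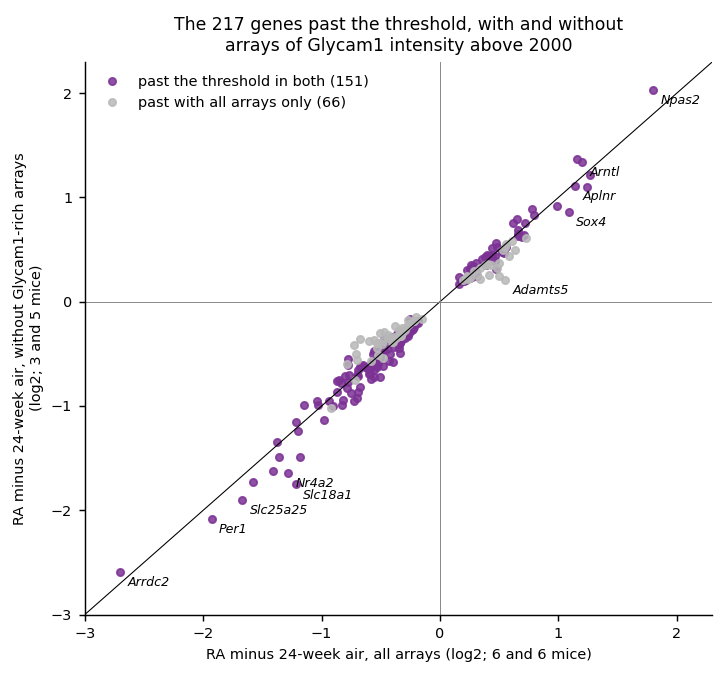
Difference between cessation RA and 24 weeks of sham air (log2) for each of the 217 genes, with all arrays on the horizontal axis and without arrays of Glycam1 intensity above 2000 on the vertical axis. Purple points are the 151 genes that passed both ways, grey points those that passed only with all arrays, and the diagonal marks equal differences; no point lies across 0 from the other value.

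Among the clock activators, 3 of 5 measured members were higher and none was lower, with a list median of 0.48 against -0.01 over all genes. Npas2 (Entrez 18143), the partner of BMAL1 related to CLOCK, had a lowest level of 7.52, a median of 8.12 and a highest of 8.89 in cessation RA mice, against 6.01, 6.42 and 6.64 in sham-air mice. The groups did not overlap. The difference was 1.80 ± 0.20 (adjusted p = 4.7e-08), or 3.49-fold, and 2.03 without the Glycam1-rich arrays. Arntl (Entrez 11865), which encodes BMAL1, had 9.58, 9.79 and 10.37 in cessation RA mice, against 8.25, 8.71 and 9.06 in sham-air mice, again with no overlap. Its difference was 1.20 ± 0.16 (adjusted p = 1.9e-06). Clock itself was higher by 0.48 ± 0.09 (adjusted p = 0.0014), while Rora, an activator of Arntl, differed by -0.08 and did not pass.

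Of 10 clock repressors 4 were lower and 1 was higher, with a median difference of -0.33. Per1 (Entrez 18626), which encodes one of the proteins that block BMAL1 and CLOCK, had 7.10, 7.30 and 7.97 in cessation RA mice as its lowest, median and highest levels, against 9.13, 9.23 and 9.78 in sham-air mice. All 6 cessation RA mice lay below every sham-air mouse. The difference was -1.93 ± 0.22 (adjusted p = 4.7e-08), or 3.80-fold. Per2 had 7.35, 7.94 and 8.38 in cessation RA mice, against 9.13, 9.55 and 9.90 in sham-air mice, a difference of -1.58 ± 0.20 (adjusted p = 1e-06). Ciart, a repressor that binds BMAL1, differed by -1.41 ± 0.24 (adjusted p = 0.00029) and Per3 by -0.83 ± 0.14 (adjusted p = 0.00016). The other probe sets of Per3 gave -0.06, -0.19 and -0.37 and did not pass. Nr1d1, which represses Arntl, was the only higher member, by 0.66 ± 0.16 (adjusted p = 0.015). Cry1 (0.03), Bhlhe40 (-0.05) and Nr1d2 (-0.06) did not pass, and Cry2, at -0.38, passed only without the Glycam1-rich arrays.

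Clock output genes, which carry the rhythm to other pathways, gave 7 lower and no higher members of 11. Wee1, a kinase that holds cells before mitosis, had 8.09, 8.37 and 8.44 in cessation RA mice, against 9.02, 9.18 and 9.58 in sham-air mice. The groups lay apart, and the difference was -0.90 ± 0.10 (adjusted p = 4.7e-08). The PAR leucine zipper factors Hlf, Dbp and Tef, which bind the D-box, differed by -0.61 ± 0.12, -0.48 ± 0.14 and -0.32 ± 0.07 (adjusted p = 0.002, 0.048 and 0.01). Noct, the NADPH phosphatase nocturnin, differed by -0.69 ± 0.11 and Tspan4, a tetraspanin, by -0.73 ± 0.14. Usp2, a deubiquitinase, differed by only -0.34 ± 0.06, yet all 6 cessation RA mice lay below all sham-air mice.

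Promoter windows from RefSeq (GRCm38.p6), 300 bases each around the start of the gene, were available for 55 of the higher and 121 of the lower genes and for 9952 of those tested. The E-box CACGTG lay in 9.09% of the windows of higher genes and 14.9% of those of lower genes, against 11.7% over all tested genes. The D-box TTATGTAA, read on both strands, lay in none of the 55 and in 5 of the 121 (4.13%), against 0.673%; the 5 genes were Gabrr2, Per3, Coq10b, Gkn3 and Atp2b2, of which Gabrr2 and Atp2b2 are named for this match after their values were seen. The hexamer AGGTCA, bound by ROR and REV-ERB proteins, lay in 16.4% and 13.2%, against 15%, and the cyclic AMP element TGACGTCA in none and in 4.13%, against 3.46%. Over all 32851 windows of the table the shares were 7.15% for the E-box, 0.938% for the D-box, 16.3% for AGGTCA and 1.79% for TGACGTCA. A match describes these letters only. The windows of 6 genes that differed are printed because they show these elements in lower genes (Per1, Ciart, Coq10b, Per3 and Gkn3) and in a higher one (Arntl). They run 5′ to 3′ on the strand of the gene, with the matched elements or their reverse complements in capitals.
Per1, chr11:69098699-69098998, plus strand: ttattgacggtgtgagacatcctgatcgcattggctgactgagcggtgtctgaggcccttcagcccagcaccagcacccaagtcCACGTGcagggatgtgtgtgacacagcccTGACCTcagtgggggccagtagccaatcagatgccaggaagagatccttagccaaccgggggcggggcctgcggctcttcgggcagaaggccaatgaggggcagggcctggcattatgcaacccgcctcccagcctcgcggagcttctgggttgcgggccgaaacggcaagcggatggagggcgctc
Ciart, chr3:95882179-95882478, minus strand: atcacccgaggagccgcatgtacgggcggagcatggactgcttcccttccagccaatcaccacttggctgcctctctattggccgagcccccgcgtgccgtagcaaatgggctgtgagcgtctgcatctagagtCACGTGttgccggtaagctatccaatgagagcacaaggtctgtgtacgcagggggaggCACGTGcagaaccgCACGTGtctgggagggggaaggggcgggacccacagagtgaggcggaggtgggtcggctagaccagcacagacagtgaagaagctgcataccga
Coq10b, chr1:55052520-55052819, plus strand: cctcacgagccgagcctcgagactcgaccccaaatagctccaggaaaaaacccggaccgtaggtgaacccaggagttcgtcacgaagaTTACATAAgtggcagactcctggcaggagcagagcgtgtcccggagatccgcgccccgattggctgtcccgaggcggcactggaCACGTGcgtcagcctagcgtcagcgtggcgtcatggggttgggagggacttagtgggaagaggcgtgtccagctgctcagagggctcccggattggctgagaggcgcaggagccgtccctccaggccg
Per3, chr4:151044616-151044915, minus strand: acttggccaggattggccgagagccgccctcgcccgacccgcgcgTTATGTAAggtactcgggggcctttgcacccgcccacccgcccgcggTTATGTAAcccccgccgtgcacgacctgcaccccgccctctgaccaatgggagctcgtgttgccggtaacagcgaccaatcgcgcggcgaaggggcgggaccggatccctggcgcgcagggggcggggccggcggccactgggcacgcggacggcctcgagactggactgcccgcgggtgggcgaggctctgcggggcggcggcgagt
Gkn3, chr6:87388886-87389185, minus strand: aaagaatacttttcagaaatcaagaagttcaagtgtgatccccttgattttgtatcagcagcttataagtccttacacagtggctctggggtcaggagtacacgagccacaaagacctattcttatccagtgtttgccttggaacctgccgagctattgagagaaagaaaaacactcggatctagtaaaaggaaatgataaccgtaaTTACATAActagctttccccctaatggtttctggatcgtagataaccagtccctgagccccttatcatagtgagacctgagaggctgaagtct
Arntl, chr7:113207261-113207560, plus strand: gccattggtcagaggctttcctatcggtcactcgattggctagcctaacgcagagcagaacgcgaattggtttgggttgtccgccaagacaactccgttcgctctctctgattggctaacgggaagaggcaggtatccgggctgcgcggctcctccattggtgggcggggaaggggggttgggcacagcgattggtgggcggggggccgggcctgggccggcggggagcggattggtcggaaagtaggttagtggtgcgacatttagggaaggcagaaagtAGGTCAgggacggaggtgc
The 5 lower genes shown hold E-boxes, D-boxes or both, that of Per1 also holds the reverse complement of AGGTCA, and the window of Arntl holds AGGTCA alone.

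**Figure D2:**
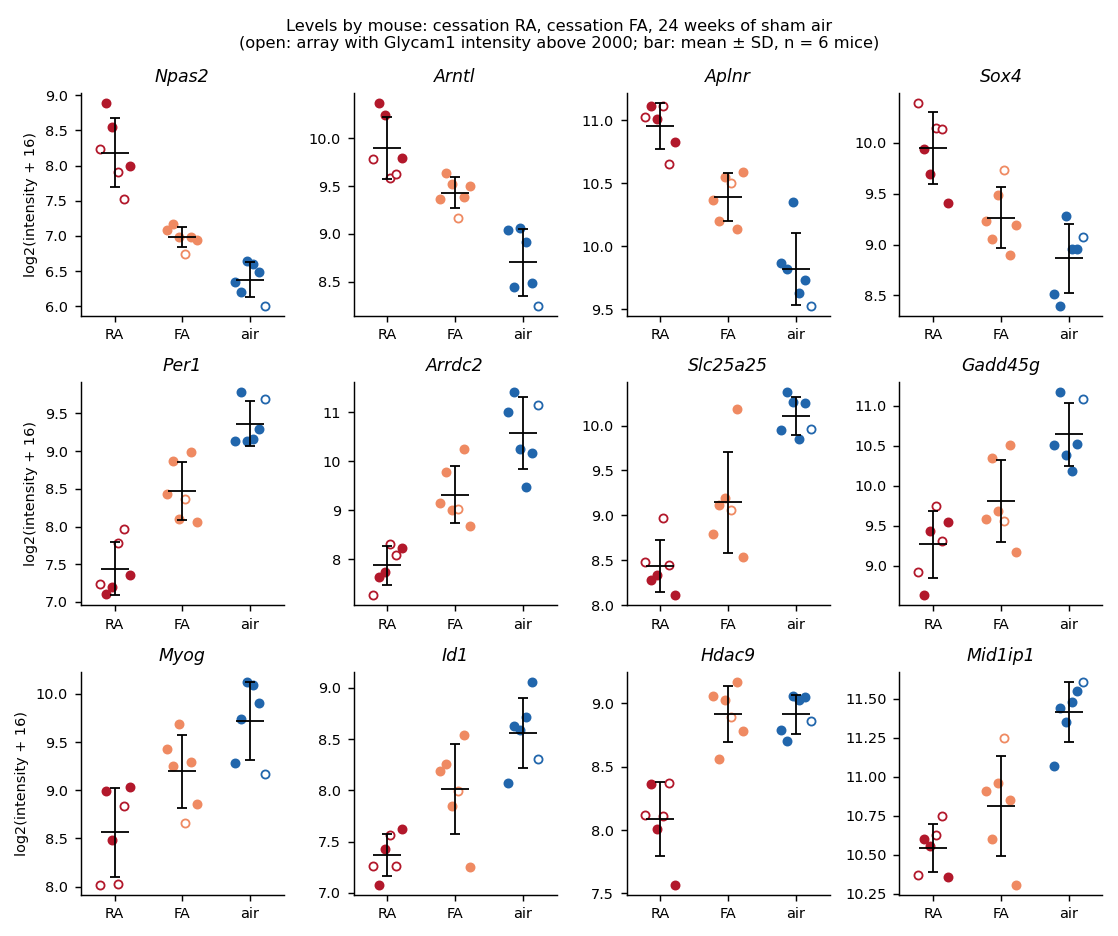
Levels (log2 of intensity plus 16) of 12 genes in each mouse of cessation RA, cessation FA and 24 weeks of sham air, with group means and SDs (n = 6 mice). Open points are Glycam1-rich arrays. For each gene shown all cessation RA mice lie on one side of all sham-air mice, and cessation FA lies between the 2 means or, for Hdac9, level with sham air.

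Beyond the clock, the largest difference among the 217 genes was that of Arrdc2 (Entrez 70807), a member of the alpha-arrestin family and a known glucocorticoid-responsive transcript of muscle. It had 7.27, 7.91 and 8.31 as its lowest, median and highest levels in cessation RA mice, against 9.47, 10.63 and 11.41 in sham-air mice. No cessation RA mouse reached the lowest sham-air mouse, although the sham-air group itself spread widely (SD 0.74). The difference was -2.70 ± 0.39 (adjusted p = 1.2e-05), or 6.5-fold, and -2.59 without the Glycam1-rich arrays. Of 22 glucocorticoid response genes 4 were lower, none was higher and the median was -0.14. The others were Tsc22d3, the anti-inflammatory leucine zipper protein GILZ, at -0.54 ± 0.09, the metallothionein Mt2 at -0.92 ± 0.25 and the transcription factor Cebpb at -0.52 ± 0.14 (adjusted p = 0.00018, 0.044 and 0.031). Mt2 and Cebpb did not pass without the Glycam1-rich arrays (adjusted p = 0.089 and 0.11). Fkbp5, the co-chaperone of the glucocorticoid receptor, differed by -0.28 ± 0.23 and did not pass, nor did Klf15, at -0.43 ± 0.19. The ubiquitin ligases Trim63 (0.04 ± 0.15) and Fbxo32 (0.16 ± 0.22), which mark muscle wasting, did not pass, and none of 17 atrophy and FOXO genes did with all arrays.

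Slc25a25, the mitochondrial carrier that exchanges ATP-magnesium for phosphate, had 8.11, 8.39 and 8.97 in cessation RA mice, against 9.85, 10.10 and 10.37 in sham-air mice. The groups lay well apart, and the difference was -1.67 ± 0.21 (adjusted p = 5.1e-07). The suffix of this probe set marks shared sequence, and the gene's other probe set gave -2.84 ± 0.33. Gadd45g, a stress-induced growth arrest gene, had 8.63, 9.37 and 9.75 in cessation RA mice, against 10.19, 10.52 and 11.17 in sham-air mice, and differed by -1.38 ± 0.31 (adjusted p = 0.0098). Of 22 immediate early genes, which respond within minutes to signals such as contraction, 3 were lower and none was higher. They were Nr4a2, an orphan nuclear receptor, at -1.28 ± 0.33, the AP-1 member Fosl2 at -0.58 ± 0.16 and Klf6 at -0.35 ± 0.10 (adjusted p = 0.029, 0.044 and 0.044). Nr4a2 overlapped in 1 mouse, since its highest cessation RA level was 9.60 and its lowest sham-air level 9.08. Fos (0.88 ± 0.52) and Egr1 (1.05 ± 0.42) had positive differences and did not pass. Of 16 MAP kinase phosphatases Dusp6, which switches off ERK, was higher by 0.46 ± 0.12 (adjusted p = 0.032) and none was lower.

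Among 18 myogenic factors 3 were lower and none was higher, with a median of -0.10. Myog, the myogenin that drives fusion and is raised by loss of nerve input, had 8.02, 8.66 and 9.03 in cessation RA mice, against 9.17, 9.82 and 10.12 in sham-air mice. The gap between the groups was narrow but no mouse crossed it, and the difference was -1.15 ± 0.27 (adjusted p = 0.012). Id1 and Id3, inhibitors of the MyoD family, differed by -1.20 ± 0.28 and -0.40 ± 0.09 (adjusted p = 0.015 and 0.013), while Myod1 differed by -0.20 ± 0.23 and did not pass. Among 18 genes of the nerve-muscle synapse and its histone deacetylases 1 was higher and 1 lower. Hdac9, a class IIa deacetylase that represses MEF2, had 7.57, 8.11 and 8.37 in cessation RA mice, against 8.70, 8.94 and 9.06 in sham-air mice. All cessation RA mice lay below all sham-air mice, with a difference of -0.82 ± 0.12 (adjusted p = 2.1e-05). The other probe set of Hdac9 gave -0.49 ± 0.17 and did not pass. Colq, the collagen tail that anchors acetylcholinesterase at the synapse, was higher by 0.72 ± 0.15 (adjusted p = 0.0051). The acetylcholine receptor subunit Chrna1 differed by -0.12 ± 0.22 and did not pass. The mean of 6 Schwann cell and nerve markers ran from 8.11 to 9.15 in cessation RA mice and from 8.21 to 9.52 in sham-air mice, and all 6 of these markers had negative differences. Without the Glycam1-rich arrays that mean ran from 8.11 to 8.66 in cessation RA mice and from 8.68 to 9.52 in sham-air mice (difference -0.84, exact permutation p = 0.036, adjusted p = 0.45). Its part in the values of Myog, Hdac9 and Colq was not tested.

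Lipogenesis genes had a median difference of -0.28, with 1 of 17 lower. This was Mid1ip1, which promotes assembly of acetyl-CoA carboxylase into its active form, with 10.36, 10.58 and 10.75 in cessation RA mice, against 11.07, 11.46 and 11.61 in sham-air mice. The groups did not overlap, and the difference was -0.87 ± 0.13 (adjusted p = 2.2e-05) with all arrays and -0.87 without the Glycam1-rich ones. Without those arrays the list median was -0.77, all 17 members had negative differences and 3 passed. The other members past the threshold were Srebf1, the sterol and lipid regulator, at -0.78 ± 0.16 and Thrsp, a lipogenic nuclear protein, at -1.37 ± 0.40, both named after their values were seen. With all arrays they differed by -0.47 and -0.52 and did not pass. The adipocyte marker mean ran from 9.66 to 10.32 in cessation RA mice and from 10.00 to 11.95 in sham-air mice without the Glycam1-rich arrays, a difference of -0.75, and its difference with all arrays was -0.04. Its part in the lipogenesis values was not tested. None of 24 fatty acid oxidation, 24 glucose and glycogen, 17 sterol or 43 respiratory chain genes passed with all arrays or without the Glycam1-rich ones. At the shares over all genes tested, 1.76% and 3.97%, lists of these sizes would hold few calls. With all arrays the medians of these lists lay between -0.06 and 0.03. Pdk4, the fasting-induced kinase of pyruvate dehydrogenase, differed by 0.04 ± 0.14 and Ppargc1a, the coactivator PGC-1 alpha, by 0.01 ± 0.18. Nrip1, a corepressor of oxidative genes, was lower by 0.33 on the log2 scale and was the 1 member of 17 PGC-1 and PPAR regulators that passed. Of 22 insulin and IGF signalling genes Pik3ca, the catalytic subunit of PI3-kinase, was higher by 0.19 ± 0.05 (adjusted p = 0.023).

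Aplnr, the apelin receptor of blood vessels, had 10.65, 11.02 and 11.11 in cessation RA mice, against 9.53, 9.77 and 10.35 in sham-air mice. Every cessation RA mouse lay above every sham-air mouse. The difference was 1.14 ± 0.19 (adjusted p = 0.00022), its other probe set gave 1.08 ± 0.17, and it was 1.11 without the Glycam1-rich arrays. Flt1, a receptor for VEGF, was lower by 0.56 on the log2 scale (adjusted p = 0.023). These were the members of 21 vessel growth signals that passed, while Vegfa differed by 0.04 ± 0.13 and the mean of 16 endothelial markers, Flt1 among them, by 0.03. Gpr34 and Lpar4, receptors for lysophospholipids, were higher by 1.24 ± 0.34 and 0.73 ± 0.16 (adjusted p = 0.042 and 0.0051), and Lpar4 did not pass without the Glycam1-rich arrays (adjusted p = 0.071). Adamts4, a protease that cuts aggrecan and versican, had 6.49, 6.97 and 7.12 in cessation RA mice, against 5.54, 5.73 and 6.58 in sham-air mice. The groups overlapped, with 4 cessation RA mice above every sham-air mouse, and the difference was 0.99 ± 0.20 (adjusted p = 0.002). Timp3, an inhibitor of such proteases, was lower by 0.42 on the log2 scale (adjusted p = 0.0024) and was the 1 of 21 collagen and matrix genes that passed.

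Other higher genes had varied roles. The transcription factor Sox4 was higher by 1.09 ± 0.22 (adjusted p = 0.002), with 9.41, 10.04 and 10.39 in cessation RA mice, against 8.4, 8.96 and 9.28 in sham-air mice. Its other probe sets gave 0.27 ± 0.18, which did not pass, and 0.52 ± 0.13. Prss55, a serine protease, differed by 1.16 ± 0.21, Pla2g7, which inactivates platelet-activating factor, by 0.78 ± 0.19 and Tpx2, a spindle protein, by 0.79 ± 0.19 (adjusted p = 0.00047, 0.021 and 0.014). None of 12 cell cycle markers, a list without Tpx2, passed. Dntt, the polymerase that adds bases in lymphocyte precursors, differed by 1.27 ± 0.21 and by 1.21 without the Glycam1-rich arrays. Its probe set also has a suffix for shared sequence, and the gene's other probe set, without that suffix, gave 1.54 ± 0.25. Smaller differences were those of Rflnb, which binds filamin (0.66 ± 0.11), Plekhg1 (0.71 ± 0.12), the transporter Slc16a9 (0.54 ± 0.11) and Mfsd4a (0.52 ± 0.11). Cept1, which makes membrane phospholipids, differed by 0.41 ± 0.08, the G protein subunit Gnb4 by 0.39 ± 0.08 and the zinc finger gene Zkscan1 by 0.25 ± 0.05. For Rflnb the cessation RA levels lay between 9.39 and 9.56 and the sham-air levels between 8.64 and 8.98. Auts2 was higher by 0.69 ± 0.18 (adjusted p = 0.032) with overlap, since its lowest cessation RA level was 11.22 and its highest sham-air level 11.33.

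Nmb, the peptide neuromedin B, had 7.06, 7.21 and 7.50 in cessation RA mice, against 8.01, 8.62 and 9.15 in sham-air mice. It did not overlap, and the difference was -1.36 ± 0.21 (adjusted p = 4.6e-05). Cys1, the cilium protein cystin, had 6.92, 7.24 and 7.33 in cessation RA mice, against 8.09, 8.21 and 8.33 in sham-air mice, and differed by -1.04 ± 0.14 (adjusted p = 1.9e-06). 1110046J04Rik, for which no role is given here, differed by -1.22 ± 0.20 and Map3k6, a stress kinase, by -1.18 ± 0.25. Slc18a1, a vesicular monoamine transporter, differed by -1.22 ± 0.29 but only 3 cessation RA mice lay below all sham-air mice. Fam107a (-1.03 ± 0.23), the gastrokine Gkn3 (-0.98 ± 0.18), the flavin monooxygenase Fmo2 (-0.78 ± 0.14), Coq10b of the coenzyme Q pathway (-0.58 ± 0.10) and the Mediator subunit Med26 (-0.47 ± 0.08) were lower too. Gkn3, Fmo2, Coq10b and Med26 had all cessation RA mice below all sham-air mice, while for Fam107a the highest cessation RA level and the lowest sham-air level were both 7.77 after rounding. Kcna5, a voltage-gated potassium channel, was the 1 of 15 potassium channels that passed, at -0.79 ± 0.21 (adjusted p = 0.031), and it did not pass without the Glycam1-rich arrays (adjusted p = 0.065). Of the 217 genes 96 had 177 further probe sets, of which 15 had the other sign and none of those passed, while 40 passed with the same sign. Per3, Hdac9, Hlf, Tef, Dbp, Nr4a2, Tpx2, Pik3ca, Slc16a9, Mfsd4a, Gnb4, Zkscan1 and Med26 were among the genes of which no further probe set passed.

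**Figure D3:**
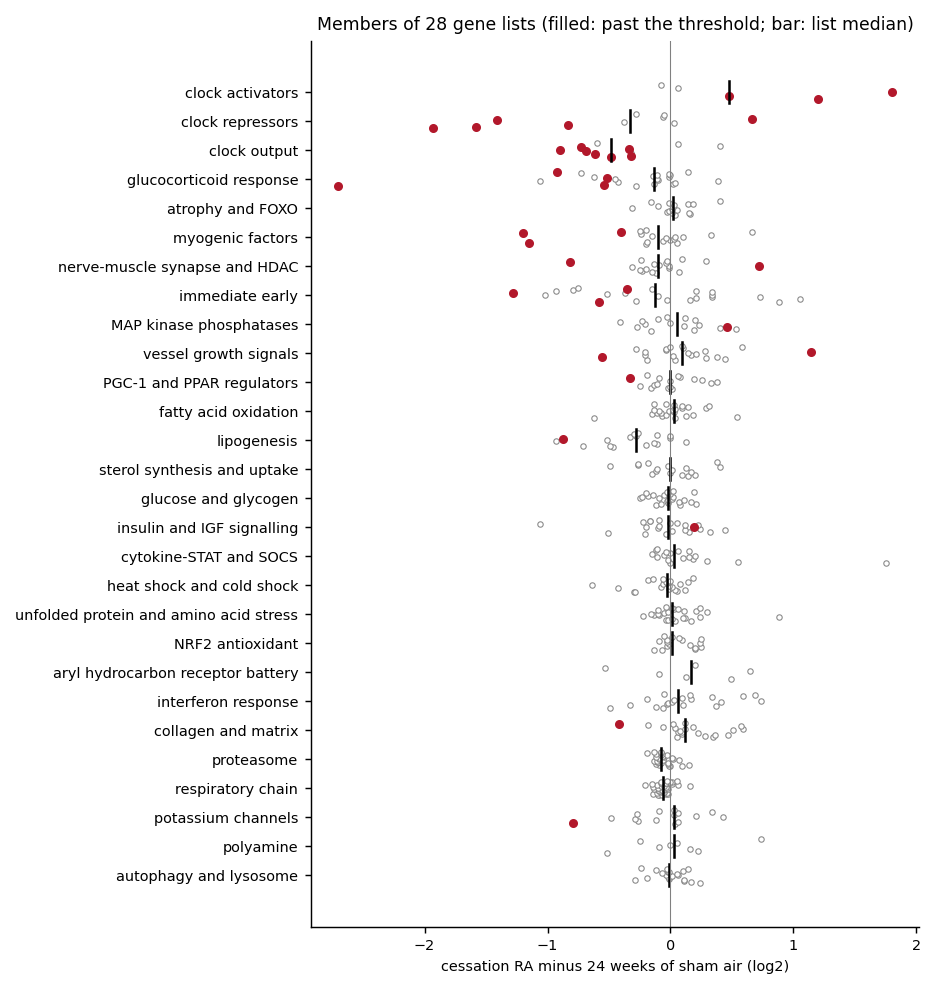
Difference between cessation RA and 24 weeks of sham air (log2) for each measured member of 28 gene lists, 1 row per list. Filled points passed, open points did not, and black bars are list medians, which are farthest from 0 for the clock activators and the clock output genes (0.48 and -0.48).

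With all arrays 1.76% of all genes tested passed, a share at which a short list often holds none. No member passed in 14 of the 28 lists. Besides those above these were cytokine-STAT signalling (18 genes), heat and cold shock (21), the unfolded protein response (25), NRF2 antioxidant genes (17), the aryl hydrocarbon receptor battery (6), interferon response (20), the proteasome (31), polyamine genes (8) and autophagy (21). Cish, an inhibitor of cytokine receptors, had the largest of these differences, 1.75 ± 0.52 (adjusted p = 0.066), with 8.22 to 10.50 in cessation RA mice, against 7.14 to 8.81 in sham-air mice. The groups overlapped for Cish. Cyp1a1, the enzyme that tobacco smoke induces through the aryl hydrocarbon receptor, ran from 6.86 to 7.73 in cessation RA mice and from 6.83 to 7.73 in sham-air mice (difference -0.09 ± 0.25). Without the Glycam1-rich arrays 7 of the 14 lists had members that passed. Among NRF2 genes Txnrd1 was higher by 0.27 ± 0.07, Nqo1 by 0.35 ± 0.10 and Srxn1 by 0.52 ± 0.15, and Nqo1 is also the member of the aryl hydrocarbon receptor battery that passed. Fbxo30, a ubiquitin ligase of the atrophy and FOXO list, was higher by 0.31 ± 0.09 (adjusted p = 0.043), and Osmr, the oncostatin M receptor of the cytokine list, was at -0.34 ± 0.09 (adjusted p = 0.028). In the polyamine and autophagy lists Srm, which makes spermidine, was at -0.44 ± 0.10 and Ulk1, which starts autophagy, at 0.40 ± 0.08 (adjusted p = 0.0059 and 0.0026). Nqo1, Srxn1, Fbxo30 and Osmr were named after their values were seen. Dnajb1, a heat shock cochaperone, was at -0.64 ± 0.18 with all arrays (adjusted p = 0.056) and was lower without the Glycam1-rich ones (-0.90, adjusted p = 0.0043).

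The direct test of the 2 cessation arms asked where RA differed from FA. It passed 3 genes, 0.0243% of those tested, while 512 had an unadjusted p under 0.05. Npas2 was higher in cessation RA by 1.20 (adjusted p = 0.0023), with a mean of 8.18 ± 0.49 in cessation RA mice and 6.99 ± 0.14 in cessation FA mice. Hdac9 was lower by 0.82 on the log2 scale (adjusted p = 0.00019), at 8.09 ± 0.29 in cessation RA and 8.91 ± 0.22 in cessation FA. Crip3, a LIM domain protein, averaged 7.99 ± 0.57 in cessation RA and 6.56 ± 0.58 in cessation FA, higher by 1.43 (adjusted p = 0.013), and it did not pass against sham air (0.88 ± 0.27, adjusted p = 0.084). Npas2 and Hdac9 passed between the arms with any 1 of the 12 mice left out and without the Glycam1-rich arrays (1.45 and -0.94), and Crip3 passed in 7 of those 12 fits and not without the Glycam1-rich arrays (1.12, adjusted p = 0.24). In a fit of both arms alone none of the 3 passed (Npas2, adjusted p = 0.091; Hdac9, adjusted p = 0.10; Crip3, adjusted p = 0.20), while Eln, the elastin of vessels and matrix, and Rflnb did (0.72 ± 0.08 and 0.46 ± 0.06, adjusted p = 0.018 and 0.043). No gene passed in a fit of both arms alone without the Glycam1-rich arrays, in which 896 had an unadjusted limma p under 0.05. Per1 (-1.03, adjusted p = 0.055), Cys1 (-0.65, adjusted p = 0.055), Arrdc2 (-1.44, adjusted p = 0.32) and Arntl (0.47, adjusted p = 0.86) did not pass between the arms. Cessation FA against the same sham-air mice passed 10 genes, or 0.081%, and none in fits of those groups alone (1058 at an unadjusted limma p under 0.05). Since both comparisons share those mice, only their values are set side by side. Per1 differed from sham air by -1.93 in cessation RA and -0.90 in cessation FA, Slc25a25 by -1.67 and -0.96, Arntl by 1.20 and 0.73, Mid1ip1 by -0.87 and -0.61 and Hdac9 by -0.82 and 0.00. Of these, Slc25a25, Arntl and Mid1ip1 passed in cessation FA (adjusted p = 0.039 each), and Per1 (adjusted p = 0.08) and Hdac9 did not.

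Against sham-air mice of other exposure lengths, the mean of the 2-week and 12-week groups, 560 genes passed, or 4.53%, 285 higher and 275 lower. This comparison shares the cessation RA mice with the first. Npas2 differed by 2.27 there, Arntl by 1.74, Per1 by -1.72, Per2 by -1.99, Arrdc2 by -2.08, Hdac9 by -1.05, Cys1 by -1.11 and 1110046J04Rik by -1.43. All of these passed. Aplnr (0.50, adjusted p = 0.069), Gadd45g (-0.55, adjusted p = 0.26), Nr4a2 (-0.53, adjusted p = 0.31), Cebpb (-0.04, adjusted p = 0.88) and Klf6 (-0.11, adjusted p = 0.50) did not pass against these mice of shorter exposure.

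Untreated mice of week 0 had no exposure of either kind, and their comparisons were added after seeing the data. Cessation RA against untreated mice passed 9 genes, or 0.0729%, while 786 had an unadjusted p under 0.05. Npas2 (0.95), Amy1 (0.68) and Adamts5 (0.63) were higher, and Per1 (-1.45), Ciart (-1.25), Slc25a25 (-1.17), Ifngr2 (-0.97), Coq10b (-0.60) and Krt222 (-0.58) were lower. Amy1, Adamts5, Ifngr2 and Krt222 were named after their values were seen. Nmb (-0.17), 1110046J04Rik (0.06), Prss55 (0.05) and Mid1ip1 (-0.16) had small differences from untreated mice and did not pass. Per1, Slc25a25 and Coq10b passed with any 1 of the 12 mice left out, and the other 6 genes did not in 5 or more of the 12 fits. No gene passed in a fit of these 2 groups alone, in which 1014 had an unadjusted limma p under 0.05. The median difference from untreated mice was 0.12 over the 75 higher genes and -0.15 over the 142 lower genes, against 0.44 and -0.51 from 24-week sham air. These genes were chosen by their difference from 24-week sham air, so the larger medians there follow in part from that choice.

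Sham air of 2 weeks was then compared with untreated mice, which shares no mouse with cessation RA or 24-week sham air. It passed 64 genes, or 0.518%, of which 38 were higher (0.308%) and 26 lower (0.211%). Of the 75 genes higher in cessation RA, 72 had lower means after 2 weeks of sham air than in untreated mice, and 10 passed as lower and none as higher. Of the 142 genes lower in cessation RA, 123 had higher means after 2 weeks of sham air, and 19 passed as higher and none as lower. Over all genes 53% had higher means. The 29 genes that passed in both make up 13.4% of the 217. Npas2 averaged 5.75 ± 0.21 after 2 weeks of sham air and 7.23 ± 0.55 in untreated mice, a difference of -1.48 (adjusted p = 8.9e-06). Arntl (-1.38), Adamts4 (-0.93), Slc16a9 (-0.76), Plekhg1 (-0.66) and Rflnb (-0.48) were lower as well. Nmb averaged 8.50 ± 0.32 after 2 weeks of sham air and 7.41 ± 0.19 in untreated mice, a difference of 1.09 (adjusted p = 0.0034). 1110046J04Rik (1.56), Per2 (1.22), Gkn3 (0.93), Fmo2 (0.77), Wee1 (0.75), Cys1 (0.72), Hdac9 (0.57), Mid1ip1 (0.56) and Hlf (0.54) were higher as well. Per1 (0.31, adjusted p = 0.88), Arrdc2 (0.37, adjusted p = 1.0), Gadd45g (-0.09, adjusted p = 1.0) and Aplnr (-0.27, adjusted p = 0.88) did not pass. Without the Glycam1-rich arrays this comparison passed 236 genes, or 1.91%, with 114 higher (0.923%) and 122 lower (0.988%). There 72 of the 75 genes were again lower, 22 of them passing, and 125 of the 142 were higher, 29 of them passing. With the number in the mouse names as a block, an alternative added after seeing the data, 31 genes passed, 19 higher and 12 lower, and 19 of the 29 genes kept their call, while Gkn3, Mid1ip1, Hdac9 and Hlf did not (adjusted p = 0.066, 0.062, 0.077 and 0.24). Sham exposure, any difference in age and any difference in the time or date of collection cannot be told apart in this comparison.

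**Figure D4:**
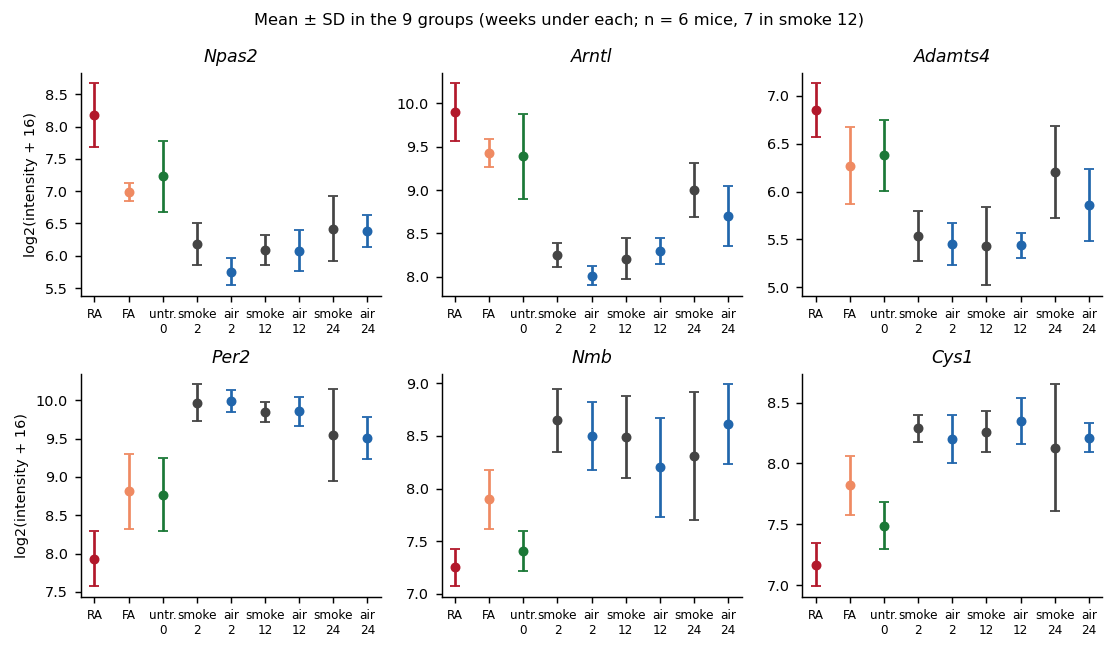
Means and SDs (log2 of intensity plus 16) of 6 genes in cessation RA, cessation FA, untreated mice and then smoke and sham air at 2, 12 and 24 weeks. In all 6 panels the means of cessation RA and untreated mice lie on the same side of the 6 groups kept on smoke alone or sham air alone. The mean of cessation FA lies on that side too in the panels of Arntl, Adamts4 and Cys1.

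**Figure D5:**
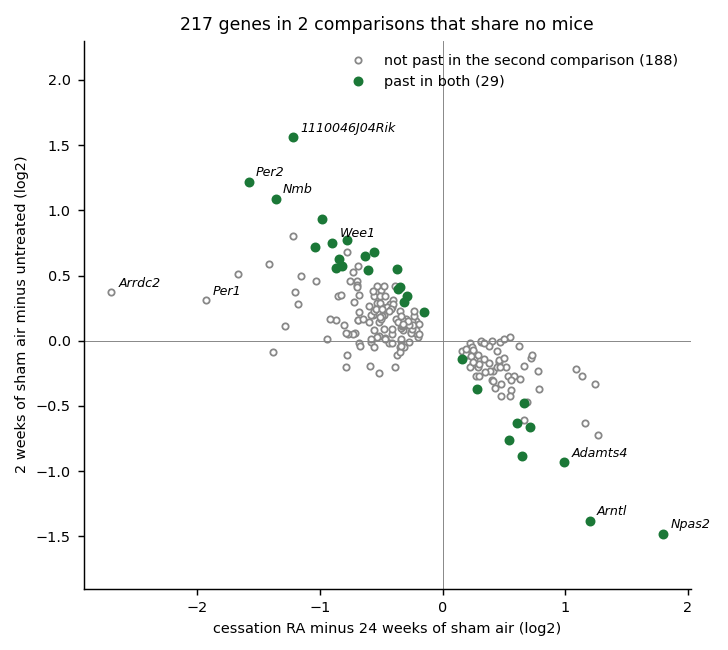
Each of the 217 genes by its difference between cessation RA and 24 weeks of sham air (horizontal, log2) and between 2 weeks of sham air and untreated mice (vertical, log2). Filled points are the 29 genes that passed in both, which lie at the upper left or lower right, while Arrdc2 and Per1 did not pass on the vertical axis.

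Across the 55 mice, after subtracting group means, the transcripts closest to Per1 were Arrdc2 (Pearson r = 0.78), Coq10b (0.73), Slc25a25 (0.72), Gadd45g (0.69) and Kcna5 (0.69). In the 43 mice with no Glycam1-rich array the same values were 0.74, 0.76, 0.69, 0.66 and 0.70. The most opposite were Tulp3 (-0.56), Aplnr (-0.54), S1pr2 (-0.53), Kpna2 (-0.52) and Cited2 (-0.52), with Aplnr at -0.69 and the others at -0.53, -0.49, -0.43 and -0.42 in the 43 mice. For Npas2 the closest were Prrc1 (0.62), Herc3 (0.58), Efr3b, Col8a1 and Lrrc52 (0.57 each), none of which passed between cessation RA and sham air with all arrays. In the 43 mice these values were 0.49, 0.62, 0.46, 0.53 and 0.45. The most opposite to Npas2 were Scd1 (-0.58), Mup5, Napg, Bicdl1 and Slc10a7 (-0.55 each), and in the 43 mice -0.54, -0.57, -0.45, -0.36 and -0.51. Transcripts of 1 mouse share its array and its tissue composition, and no test was made of these values.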

How the data were processed

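Gastrocnemius RNA of 55 mice was measured on 56 arrays. The deposited values are array intensities per probe set on a linear scale, between -20 and 15890, as the authors processed them; the summarisation and normalization behind them are not given in the sources used here. Array medians lay between 62.5 and 77.5; precision is limited by how many arrays each group has. Values were floored at -15 (5 of 2522072 values), 16 was added and log2 was taken. Of 45037 probe sets 34945 carried 1 gene symbol, 932 several and 9160 none. Each of 18193 genes was represented by its brightest probe set on average, and the 12351 genes at or above the 40th percentile of probe set means (log2 5.71) were tested. The 2 arrays of 1 mouse on 12 weeks of smoke were averaged. Groups came from the source labels. Contrasts of group means were fitted with limma 3.58.1 in R 4.3.3 over all 9 groups (46 residual degrees of freedom), with Benjamini-Hochberg adjustment, and marker means were compared by exact permutation with scipy 1.17.1.

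The members and gene lists were chosen with earlier results of these data known. Genes are named as clock genes listed by hand, as the 15 largest and the 15 of lowest p in each direction, as list members that passed (or up to 3 of lowest p), as the 10 of lowest p each way between the cessation arms, or as the 5 most and least like Npas2 and Per1. Other genes, among them Fos, Egr1, Myod1, Chrna1, Fkbp5, Klf15, Trim63, Fbxo32, Pdk4, Ppargc1a, Vegfa, Rora, Cry1, Cry2, Nr1d2 and Bhlhe40, were named after their values were seen. Alternatives covered the filter, pseudocount, normalization, array weights, covariates, groups fitted, probe sets, left-out mice and the number in each mouse name as a block. Mice of different groups that share a number are different animals. The 3 pairs of 2-week sham-air and untreated mice that share one (3, 5 and 8) deviated from their group means together (Pearson r = 0.35, 0.44 and 0.28 across genes). None of their arrays was Glycam1-rich, while 1 other array of each group was and shifts the group mean. These correlations therefore cannot show that a shared number marks a block. The blocked result is given for that comparison beside the unblocked one. The code was tested on simulated data.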

Additional observations from a re-analysis of the deposited data

Results flagged for a closer look

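Single mice stood apart from the other 5 of their group for 4 genes. Slc16a9 was 9.80 in cessation RA replicate 6, against 10.17 to 10.28 in the other cessation RA mice. Ciart was 7.73 in sham-air replicate 1, against 8.36 to 8.66 in the others. Colq was 4.46 and Slc18a1 6.40 in sham-air replicate 2, against 5.45 to 6.03 and 7.22 to 7.66 in the others. None of these arrays was Glycam1-rich. They were 4 of 94 groups examined (47 genes in 2 groups), or 4.26%, and chance flags about 1 in 20 groups. The 2 cessation arms differed by the limma test for Npas2 (1.20), Hdac9 (-0.82) and Crip3 (1.43), given as RA minus FA in log2 units.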

How the results depend on the processing

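The genes that passed between cessation RA and 24 weeks of sham air numbered 217, and became 490 without the Glycam1-rich arrays, 905 with array weights, 576 with the lymphocyte mean added to the model, and 37 with both groups alone and without those arrays. The 217 make up 1.76% of the genes tested, and with 1 mouse left out the share ran from 1.00% to 2.32% (cessation RA replicates 1, 2 and 3 gave 1.05%, 1.00% and 1.08%, and sham-air replicates 1, 2 and 6 gave 1.04%, 1.10% and 1.13%). The 3 genes between cessation RA and FA became 1 with the 60th percentile filter, 5 with a pseudocount of 1, 32 with weights, 5 over every probe set, 6 with the title number, 7 with the lymphocyte mean and 0 with the arms alone without Glycam1-rich arrays, and 2 to 4 with 1 mouse left out. Against sham air of 2 and 12 weeks, 560 became 1513 with weights and 1104 with those groups alone, and 297 to 533 with 1 mouse left out (cessation RA replicates 1, 4 and 5 gave 297, 351 and 370). For cessation FA against sham air, 10 became 29 without Glycam1-rich arrays, 45 with weights, 47 with the lymphocyte mean, 4 over every probe set and, in limma, 0 with no filter (1168 at unadjusted p under 0.05), 0 with the groups alone (1058) and 0 with both changes to groups and arrays (832). Against untreated mice, 9 became 15 without Glycam1-rich arrays, 4 with no filter, 5 with a pseudocount of 1, 95 with weights, 21 with the title number, 18 with the lymphocyte mean, 0 with the groups alone and 0 also without Glycam1-rich arrays (1110 at unadjusted p under 0.05), and 3 to 12 with 1 mouse left out. For 2 weeks of sham air against untreated mice, 64 became 236, 663, 150 and 183 without Glycam1-rich arrays, with weights, with the lymphocyte mean, and with groups alone without those arrays, and 35 to 70 with 1 mouse left out (untreated replicates 3 and 4 gave 35 and 38, sham-air replicates 2 and 4 gave 42 and 38). The cause of these shifts was not tested. Of 902 results of the 65 named genes that passed, 788 kept the call under the other settings, 114 lost it and 0 changed sign, with 47 of the losses in the groups alone without Glycam1-rich arrays and 32 with the mouse number as a block. With 1 mouse left out 666 of 780 kept it. Some mouse names share a number between groups. For cessation RA and sham air these are 5, 11 and 30, whose mice had deviations correlated at 0.76, 0.11 and -0.60. Both arrays of number 5 were Glycam1-rich, but of numbers 11 and 30 only the cessation RA arrays were. These correlations therefore cannot show what a shared number stands for. With that number as a replicate block, added after seeing the data, the 217 genes became 84, the 3 became 0 (1210 at unadjusted limma p under 0.05), the 560 became 183, the 10 became 0 (416), the 9 became 5 and the 64 became 31.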

Other observations

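Without the Glycam1-rich arrays 339 genes passed that did not pass with all arrays. Among them, and chosen after their values were seen, Mt1, a metallothionein, was at -1.04 (adjusted p = 0.0097) and Cdkn1a, the cell cycle inhibitor p21, at 0.74 (adjusted p = 0.048). With all arrays their differences were -0.73 and 0.39 and did not pass.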
